A study of Canis lupus familiaris and Felis catus with 4 samples.

Results

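The miR-183, miR-96 and miR-182 cluster was followed in the small RNA of urinary exosomes (UExo), the small vesicles that cells lining the urinary tract release into urine. Its 3 members, mmu-miR-183-5p, mmu-miR-96-5p and mmu-miR-182-5p, were taken by name from the table of mature miRNAs and are 3 of its 2031 entries. The series holds 4 libraries, each made from a pool of animals: 43 cats with normal renal function (NR cats), 45 cats with kidney disease (KD cats), 37 dogs with normal renal function (NR dogs) and 47 dogs with kidney disease (KD dogs). The cats were clinical patients that differed in age, breed and sex within each pool, and they were assigned to KD mainly by serum creatinine and blood urea nitrogen. Beyond their number and renal function, the sources used here do not describe the dogs. The study describes its KD cats as older than its NR cats, so that disease and age cannot be told apart in cats. Each group is 1 library, so no difference between NR and KD was tested, and neither the spread between animals nor that between libraries is known. The 95% intervals below are exact (Clopper-Pearson) and cover counting error only.

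The 3 miRNAs are cut from hairpins of a shared primary transcript. In mice and humans the cluster is best known from sensory organs, where it is abundant in hair cells of the inner ear and in photoreceptors, and mutations in the seed of miR-96 cause hearing loss. miR-182 and miR-183 are also found in many epithelia and are frequently raised in carcinomas, and FOXO1 is a known target of miR-182 and miR-96. A miRNA finds its target mRNAs mainly through its seed, the bases near its 5′ end, so members with different seeds can act on different mRNAs although they are made together.

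The sequences are shown because the seeds of the members differ by single bases, and because cat and dog reads were counted on these mouse sequences. They are the mature mouse sequences of the deposited table, written as DNA from 5′ to 3′, with the seed (bases 2 to 8) in capitals.
miR-183-5p: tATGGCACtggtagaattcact
miR-96-5p: tTTGGCACtagcacatttttgct
miR-182-5p: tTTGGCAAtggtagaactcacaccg
On the mouse genome mm10 all 3 lie on the minus strand of chromosome 6. miR-183-5p is at chr6:30169711-30169732, miR-96-5p at chr6:30169506-30169528 and miR-182-5p at chr6:30165962-30165986, so that transcription passes miR-183 first and miR-182 last. The hairpins of miR-183 and miR-96 are 143 bases apart, counted between their mature arms, and 3478 bases separate miR-96 from miR-182. In the RefSeq annotation of the dog genome (UU_Cfam_GSD_1.0) MIR183, MIR96 and MIR182 are likewise neighbours on 1 chromosome, with 0 other annotated genes between them.

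With positions counted from 1 at the 5′ end, the seed of miR-183-5p differs from that of miR-96-5p by A2T and from that of miR-182-5p by A2T and C8A. The seeds of miR-96-5p and miR-182-5p differ by C8A alone and share bases 2 to 7, TTGGCA. Beyond the seed the resemblance is of another kind. miR-183-5p and miR-182-5p have the same base at 18 of 22 positions, whereas miR-96-5p matches miR-183-5p at 13 of 22 and miR-182-5p at 12 of 23. Each 7-base seed belonged to 1 entry of the whole table, the member itself, and bases 2 to 7 of miR-96-5p and miR-182-5p were shared by those 2 entries alone. The sequence differences between the members are thus large enough for reads of full length to be told apart, but the sources used here do not state how reads with mismatches or several locations were counted.

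miR-182-5p was the abundant member in all 4 libraries, miR-183-5p was rare and miR-96-5p was almost absent. miR-182-5p had 146 and 129 reads in NR and KD cats, and 77 and 510 in NR and KD dogs. miR-183-5p had 6 and 9 reads in NR and KD cats, and 3 and 9 in NR and KD dogs. miR-96-5p, the member whose seed is mutated in hereditary deafness, had 1 read in NR cats and 0 in the other 3 libraries. The mature miRNA reads behind these counts numbered 18704 and 23784 in NR and KD cats, and 20878 and 63355 in NR and KD dogs. A count of 0 allows a share of the mature reads of up to 0.0126% in KD cats and, for NR and KD dogs, 0.0144% and 0.00474%, the share of 3 reads. The 3p arms of the hairpins (miR-183-3p, miR-96-3p and miR-182-3p) had 0 reads in every library, so the reads of this cluster, as far as this depth shows, were of the 5p arms.

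**Figure D1:**
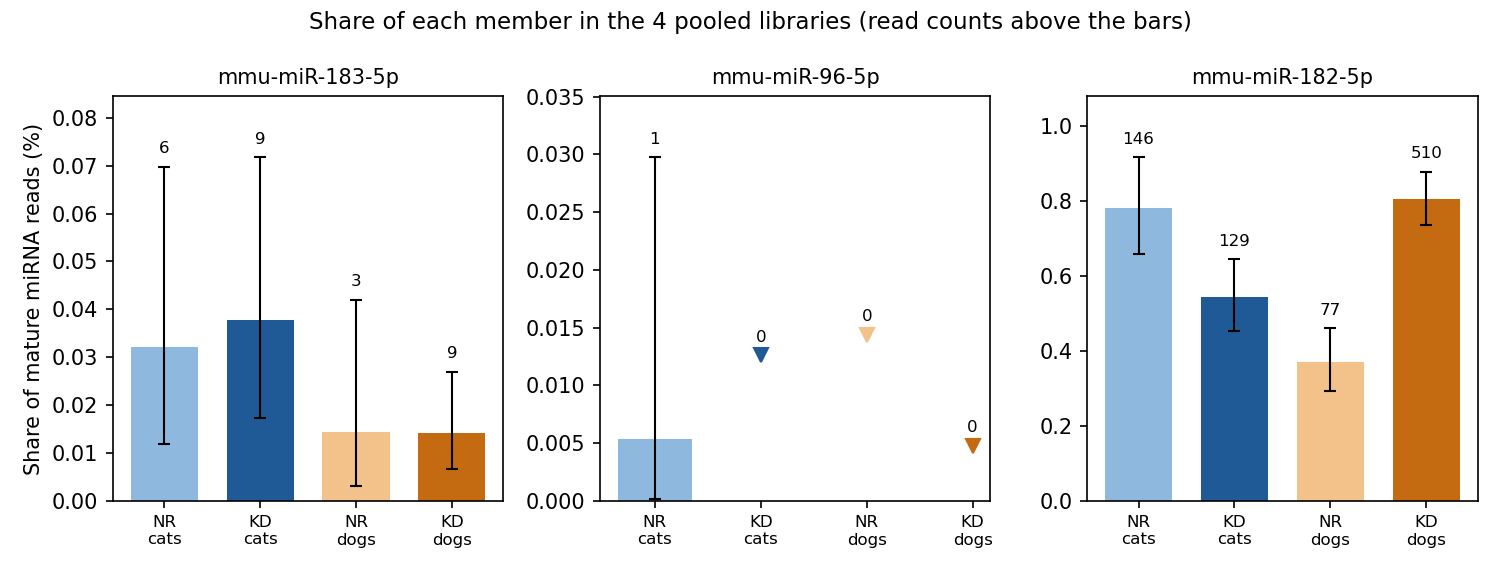
Share of the mature miRNA reads (%, linear axes that differ between panels) of miR-183-5p, miR-96-5p and miR-182-5p in the 4 pooled libraries, with exact 95% binomial intervals as error bars, read counts above them and triangles at the share of 3 reads where a library has 0. miR-182-5p is lowest in NR dogs (77 reads), miR-183-5p rests on 3 to 9 reads a library, and miR-96-5p has a read in NR cats alone.

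As a share of all mature miRNA reads, miR-182-5p made up 0.781% (95% interval 0.659 to 0.917%) of NR cats and 0.542% (0.453 to 0.644%) of KD cats. In dogs it made up 0.369% (0.291 to 0.461%) of NR and 0.805% (0.737 to 0.878%) of KD. KD dogs and NR cats did not differ beyond counting error (log2 ratio 0.04, -0.22 to 0.32), KD cats were below NR cats and NR dogs were below KD cats (log2 ratio of the last pair 0.56, 0.14 to 0.98). Ranked by reads, miR-182-5p was entry 23 and 11 in NR and KD cats, and 21 and 11 in NR and KD dogs. Its neighbours in that ranking were miR-151-3p (151 reads) and let-7a-5p (122) in NR cats and miR-21a-5p (143) and miR-30d-5p (123) in KD cats. In NR dogs they were miR-141-3p (93) and miR-92a-3p (72), and in KD dogs miR-30d-5p (545) and miR-26a-5p (489). It thus stood nearer the top of the ranking in both KD libraries, whereas its share was larger in KD in dogs and smaller in KD in cats.

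miR-183-5p made up 0.0321% (0.0118 to 0.0698%) of the mature reads of NR cats and 0.0378% (0.0173 to 0.0718%) of those of KD cats. In dogs its share was 0.0144% (0.00296 to 0.0420%) in NR and 0.0142% (0.00650 to 0.0270%) in KD. All 4 intervals overlap, so no order of the libraries can be read from this member at this depth. With ties, it stood at rank 85 and 50 in NR and KD cats, and at 89 and 85 in NR and KD dogs. The next entries above and below were miR-541-5p (7 reads) and let-7e-5p (5) in NR cats, miR-2137 (10) and miR-204-5p (8) in KD cats, miR-410-3p (4) and let-7c-5p (2) in NR dogs, and miR-421-3p (10) and miR-148b-5p (8) in KD dogs.

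The ratio of the co-transcribed members within a library does not depend on how libraries are scaled. Of the summed reads of the 3 members, miR-182-5p held 95.4% in NR cats (146 of 153, 95% interval 90.8 to 98.1%) and 93.5% in KD cats (129 of 138, 88.0 to 97.0%). In dogs it held 96.3% in NR (77 of 80, 89.4 to 99.2%) and 98.3% in KD (510 of 519, 96.7 to 99.2%). For each read of miR-183-5p, NR cats had 24.3 reads of miR-182-5p (10.9 to 67.4) and KD cats 14.3 (7.32 to 32.1), while NR dogs had 25.7 (8.46 to 127) and KD dogs 56.7 (29.6 to 125). The dominance of miR-182-5p among the counted reads was therefore common to both species and both conditions. Since all reads were counted on mouse sequences, a difference between members in abundance and one in alignment cannot be told apart. miR-96-5p held 0.654% of the cluster reads in NR cats (0.0165 to 3.59%), and its 0 reads allow up to 2.17% in KD cats and, for NR and KD dogs, 3.75% and 0.578%.

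Between NR and KD, the balance of miR-183-5p against miR-182-5p did not move beyond counting error in either species. The odds of a miR-183-5p read were 1.69 times as high in KD cats as in NR cats (95% interval 0.522 to 5.95) and 0.454 times as high in KD dogs as in NR dogs (0.110 to 2.66). Both intervals include 1 and both are wide, so they also cover changes of several-fold. Between the species, the odds were 0.948 times as high in NR dogs as in NR cats (0.149 to 4.59) and 0.254 times as high in KD dogs as in KD cats (0.0873 to 0.737). Of the 4 comparisons, 3 had an interval that includes 1, and the exception was the lower share of miR-183-5p in KD dogs than in KD cats. That comparison rests on 9 reads of miR-183-5p in each library, and since cat and dog reads were both placed on mouse sequences, a species difference in abundance and one in alignment cannot be told apart.

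**Figure D2:**
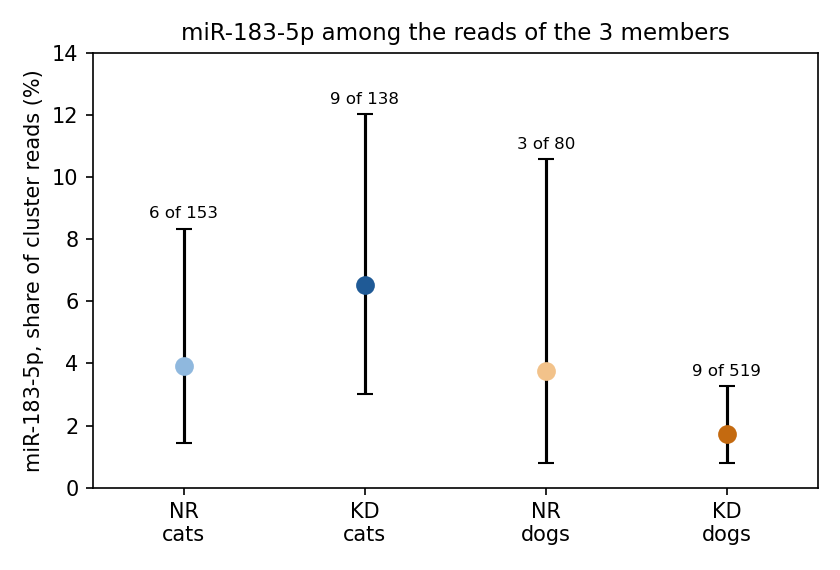
Share of miR-183-5p among the summed reads of the 3 members (%, linear axis from 0) in each pooled library, with exact 95% binomial intervals and the counts written above. The shares are 3.92% and 6.52% in NR and KD cats and 3.75% and 1.73% in NR and KD dogs, and the intervals of NR and KD overlap within each species.

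The deposited normalized values equal the read count times a factor per library, wherever the deposited log2 value is above 0. The factors were 1.16 and 2.36 in NR and KD cats, and 0.689 and 0.531 in NR and KD dogs. On these values miR-182-5p was higher in KD in both species. Its normalized value was 169 and 304 in NR and KD cats, and 53.1 and 271 in NR and KD dogs. The order was KD cats, KD dogs, NR cats and NR dogs, of which the first pair did not differ beyond counting error (log2 ratio 0.17, 95% interval -0.12 to 0.45). The log2 fold change from NR to KD was 0.85 in cats (0.49 to 1.198) and 2.35 in dogs (2.003 to 2.72), the latter 5.10-fold. For miR-183-5p the normalized value was 6.95 and 21.2 in NR and KD cats, and 2.07 and 4.78 in NR and KD dogs. Its log2 fold change of 1.61 in cats (-0.04 to 3.38) and 1.21 in dogs (-0.79 to 3.73) had intervals that include 0. miR-96-5p had a normalized value of 1.16 in NR cats, and 3 reads, the most that a count of 0 allows here, would be 7.07 in KD cats, so no fold change is given. In pooled exosome RNA, fewer vesicles from a cell type and less of the miRNA per vesicle cannot be told apart.

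The scaling decided the direction in cats and the size in dogs. miR-10a-5p and miR-10b-5p together took 44.7% and 73.3% of the mature reads in NR and KD cats, against 74.9% and 70.4% in NR and KD dogs, so that less of the total was left to all other entries in KD cats. As a share of the total, miR-182-5p was lower in KD cats, with a log2 change of -0.53 (-0.88 to -0.17), and on read counts without scaling it was at -0.18 (-0.53 to 0.17). Under the other 6 of 8 scalings it was higher in KD cats, up to 1.37 (1.02 to 1.72) against a total from which miR-10, miR-486 and miR-3107 had been left out, a scaling chosen after the values had been seen. In dogs miR-182-5p was higher in KD under all 8 scalings, from 0.89 (0.54 to 1.25) against the total without miR-10a-5p and miR-10b-5p to 2.73 (2.38 to 3.09) on read counts. It was past 2-fold in 7 of the 8 in dogs and in 2 of the 8 in cats. In cats all 8 scalings put miR-183-5p higher in KD, and 4 of them gave an interval above 0. In KD dogs it was higher under 6 and lower under 2, and its interval included 0 under each.

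**Figure D3:**
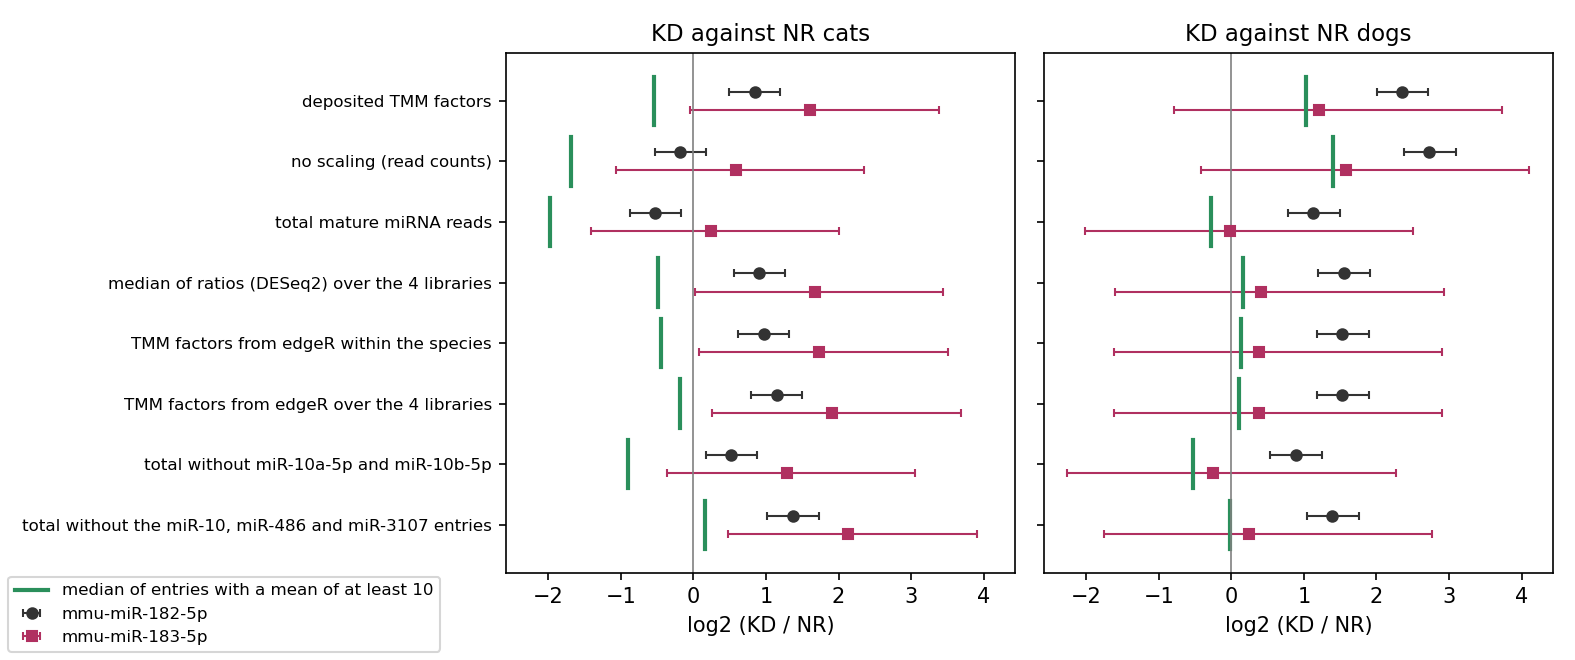
log2 ratio of KD to NR (x axis) for miR-182-5p (circles) and miR-183-5p (squares) under 8 scalings (rows), with 95% counting intervals as bars and the median of all entries with a mean of at least 10 as a green line, in cats and in dogs. miR-182-5p ranges from -0.53 to 1.37 in cats and from 0.89 to 2.73 in dogs, and the median moves with it, since a scaling shifts both.

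Set against the other miRNAs of the same libraries, miR-182-5p stood above the middle of the changes in both species. Over all entries whose normalized values averaged at least 10, the median log2 change, taken with 1 added to each value, was -0.54 in cats (79 entries) and 1.03 in dogs (54 entries). The median depended on the scaling. With TMM factors from edgeR within the species it was -0.45 in cats and 0.14 in dogs, and as shares of the total -1.97 and -0.27. NR and KD dogs had 20878 and 63355 mature reads but deposited factors of 0.689 and 0.531. Why the middle of the changes lay away from 0 was not tested. Relative to the median on the deposited values miR-182-5p was at 1.39 in cats and 1.30 in dogs. A scaling multiplies all entries of a library by 1 factor and moves the member and the median together, so the 8 scalings give 1 observation per species. The distances still varied with the entries that met the minimum mean and with the added 1. Over the 8 scalings miR-182-5p was 1.21 to 1.51 above the median in cats and 1.30 to 1.41 above it in dogs. miR-183-5p was at 2.03 relative to the median in cats and at -0.12 in dogs, with counting intervals that span several-fold in each species. In dogs its sign depended on the scaling, with a range of -0.12 to 0.32 and a place above the median under 6 of the 8. The changes in cats and in dogs share no library, and no difference between the species was tested.

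Among all entries that met the minimum mean of 10, miR-182-5p had the change ranked 18 from the top in cats, above 77.2% of the 79 entries, and 6 from the top in dogs, above 88.9% of the 54 entries. miR-96-5p passed the minimum in neither species and miR-183-5p in cats alone, where its NR value of 6.95 is under the minimum and its KD value of 21.2 lifts the mean past it. A member that passes in this way had to be higher in KD, so its fold over 2 in cats, which rests on 6 and 9 reads, is not read as a result. By a fold over 2 with 1 added to each value, 19.0% of all entries were higher in KD cats, and miR-182-5p was not among them. In dogs the 1 member that passed, miR-182-5p, was higher by over 2-fold, but so were 51.9% of all entries on the deposited values. As shares of the total, miR-182-5p was still past 2-fold in dogs, where 9.09% of the 66 entries tested were.

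**Figure D4:**
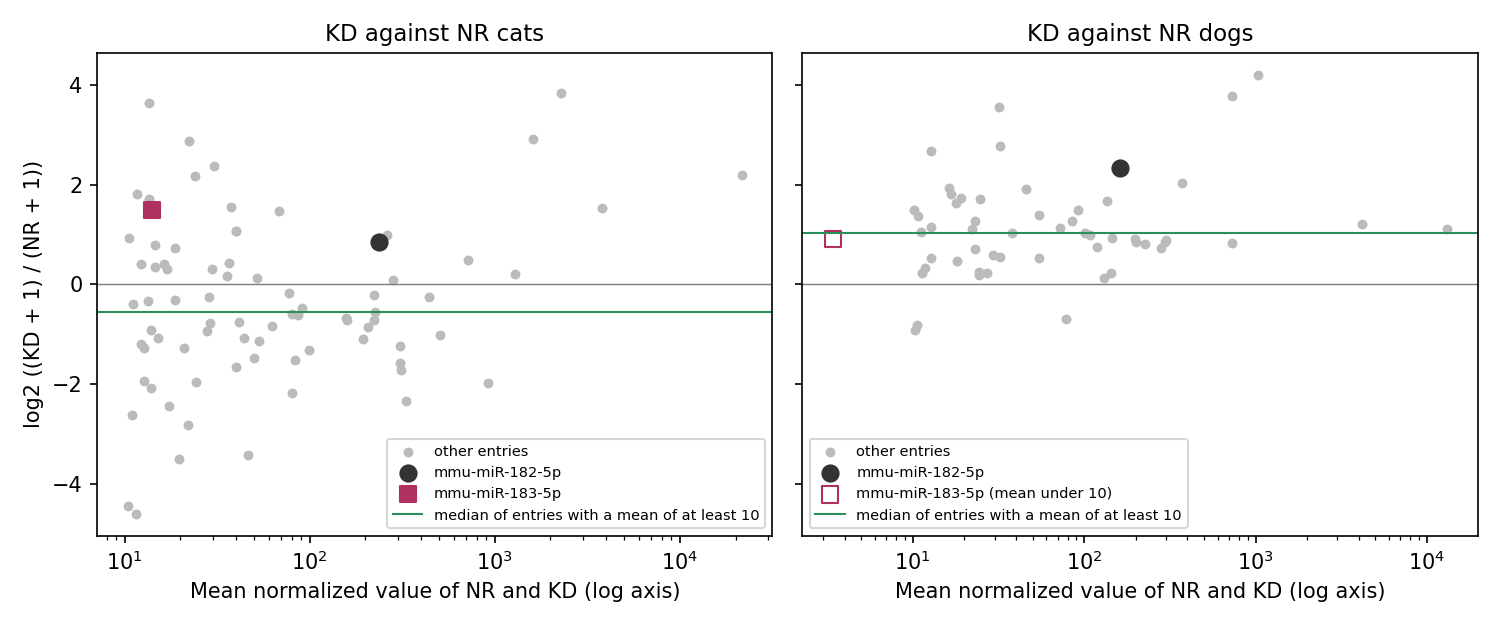
log2 of (KD + 1)/(NR + 1) against the mean normalized value of the NR and KD libraries (log x axis) for entries with a mean of at least 10 (grey), with miR-182-5p (circle), miR-183-5p (square, open where its mean is under 10) and the median of the entries (green line, -0.54 in cats and 1.03 in dogs). miR-182-5p lies above the line by 1.39 in cats and by 1.30 in dogs.

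Over the 4 libraries, the entries whose pattern was closest to that of miR-182-5p were miR-27a-3p, miR-423-5p and miR-2137, by the Euclidean distance of centred log2(normalized value + 1). The distances were 0.86, 0.96 and 1.09, against a median of 1.81 over 67 entries. miR-423-5p had 22 and 23 reads in NR and KD cats, and 27 and 138 in NR and KD dogs, where miR-27a-3p had 13 and 8, and 8 and 27. miR-183-5p, the partner from the same transcript, was at a distance of 1.33 from miR-182-5p. Its normalized values averaged under 10 over the 4 libraries, the minimum for the 67 entries, so it is not one of them. Closest to miR-183-5p were miR-2137 (0.56), miR-203-3p (0.61), a miRNA of stratified epithelia, and miR-151-3p (0.68), with a median of 2.06 over 68 entries. With 4 libraries and as few as 3 reads, these distances describe the libraries and no more.

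Reads of miRNAs that mark cell types give the setting of these values. Of the neural list (miR-124-3p, miR-9-5p, miR-9-3p and miR-128-3p, with miR-219-5p unmatched) the summed reads were 8 and 3 in NR and KD cats and 5 and 7 in NR and KD dogs, and miR-124-3p, the defining neuronal miRNA, was at 0 in every library. Epithelial miRNAs (miR-200a-3p, miR-200b-3p, miR-200c-3p, miR-141-3p, miR-429-3p, miR-203-3p and miR-205-5p), which keep cells in an epithelial state or mark epithelial layers, had reads for 7 of 7 entries in both species. They summed to 106 and 107 reads in NR and KD cats, and to 199 and 596 in NR and KD dogs. The most abundant were miR-203-3p in cats (31 and 43 reads) and miR-141-3p in dogs (93 and 388). In cats 3 of the 6 epithelial entries over the minimum mean were higher by over 2-fold and 0 lower, against 15 higher and 28 lower of all 79 entries (19.0% higher). Their median log2 change was 0.94, against -0.54 over all entries. Of the 3, miR-205-5p (4 and 8 reads) passed the minimum through its KD value alone, and the others were miR-203-3p and miR-141-3p. The list was split in cats. miR-200b-3p (29 and 16 reads), miR-200a-3p (13 and 5) and miR-429-3p (9 and 6) had fewer reads in KD than in NR cats. On the deposited values miR-200a-3p was lower in KD cats (15.1 and 11.8). miR-200b-3p (33.6 and 37.7) and miR-429-3p (10.4 and 14.1) were higher by less than 2-fold. In dogs 2 of 5 were higher and 0 lower, where 51.9% of all entries were higher and 0 lower, and their median of 0.55 lies below the 1.03 of all entries. The direction of the epithelial sum depended on the scaling. On the deposited values it was higher in KD, with a log2 change of 1.04 in cats (0.64 to 1.44) and 1.21 in dogs (0.97 to 1.45). As a share of the total the epithelial sum did not rise in KD, with a log2 change of -0.33 in cats (-0.73 to 0.068) and -0.019 in dogs (-0.25 to 0.22).

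The proportion of miR-182-5p to the epithelial miRNAs did not move beyond counting error in cats and was higher in KD in dogs. NR cats had 1.38 reads of miR-182-5p per epithelial read and KD cats 1.21, an odds ratio of 0.876 (95% interval 0.602 to 1.27). In dogs there were 0.387 in NR and 0.856 in KD, an odds ratio of 2.21 (1.64 to 2.99). The ratio of miR-182-5p to the kidney tubule miRNAs (miR-192-5p, miR-194-5p, miR-215-5p and miR-204-5p) was higher in KD in both species. The odds ratio was 3.66 in cats (2.29 to 5.97) and 2.83 in dogs (2.15 to 3.75). In cats miR-182-5p itself had fewer reads in KD (146 and 129 in NR and KD), and the tubule list fell further. The tubule reads were 133 and 32 in NR and KD cats (0.711% and 0.135% of the mature reads), and 350 and 820 in NR and KD dogs (1.68% and 1.29%). In dogs they were mostly of miR-192-5p (304 and 737). In cats most were of miR-192-5p (70 and 19) and miR-204-5p (53 and 8), whereas miR-215-5p had 3 and 5. The ratios of miR-182-5p to the lists do not depend on the scaling, and they were computed after the values had been seen.

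The white blood cell miRNAs (miR-142-3p, miR-142-5p, miR-223-3p, miR-150-5p and miR-155-5p) had fewer reads for their depth in KD cats and more in KD dogs. In both species the reads were nearly all of miR-142-5p. Their summed share of the mature reads was 2.41% and 0.265% in NR and KD cats, and 0.0287% and 0.194% in NR and KD dogs, with miR-142-3p at 0 in 3 libraries. In dogs miR-142-5p gave all 6 NR reads and 112 of the 123 KD reads, and it was the 1 entry of the list over the minimum mean. Red blood cell miRNAs (miR-451a, miR-144-3p and miR-144-5p) summed to 33 reads and 1 read in NR and KD cats, and to 8 and 20 in NR and KD dogs. Nearly all of these reads were of miR-451a, so the sum describes little beyond that entry. miR-486-5p and miR-3107-5p, which the paper treats as the same mature miRNA, were not on this list. They had more reads in KD in both species, in cats 325 and 1212 (miR-486-5p) and 257 and 1812 (miR-3107-5p) in NR and KD. The part that these cell types have in the values of miR-182-5p was not tested.

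**Figure D5:**
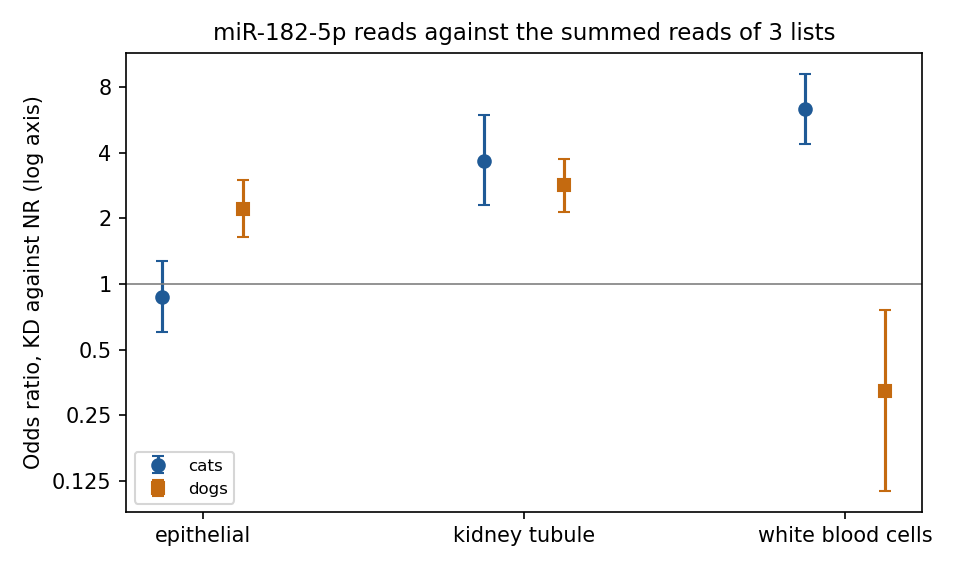
Odds ratio of KD to NR (log y axis) for miR-182-5p reads against the summed reads of epithelial, kidney tubule and white blood cell miRNAs, in cats (circles) and dogs (squares), with exact 95% intervals. Against the tubule list both species lie above 1 (3.66 and 2.83), against the epithelial list dogs alone do (2.21, with cats at 0.876), and against the white blood cell list they lie on opposite sides of 1.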

How the data were processed

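The authors pooled UExo RNA of each group, made TruSeq small RNA libraries, trimmed adaptors and inserts under 14 nt, aligned the reads with Bowtie 1.0.0 to mm10, with several locations allowed, and obtained counts per mouse miRNA in StrandNGS. CASAVA 1.8.2 is named in the submitters' processing notes. The deposited table gives read counts and log2 values that the authors normalized by TMM, for 2031 entries, with 4 emptied lines not analysed here. Each log2 value equals log2 of the count plus a constant per library, so levels were computed as count times factor.

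Members and lists were chosen with earlier results of these data known. The named miRNAs were the 3 members, their 3p arms, the 3 entries of the most similar pattern, the neighbours in read count and the listed markers. miR-1271-5p, planned for its seed, matched 0 entries and is not analysed here. No test was run, since each group is 1 library. Ratios of counts and odds ratios have exact conditional intervals, and shares have exact binomial ones. For a count of 0, up to 3 reads were allowed. Alternatives were 8 scalings (with edgeR 4.0.16 and DESeq2 1.42.0), pseudocounts, filters, folds and sums over arms. A total from which miR-10, miR-486 and miR-3107 were left out was chosen after seeing the data, as were the odds against the lists. On counts simulated with counting error alone, 96.9% of true folds lay in their intervals for cats (88 entries) and 96.5% for dogs (100 entries). The intervals are exact for such counts, so this checks the computation and not the spread between animals or libraries. Python 3.11.15, scipy 1.17.1 and R 4.3.3 were used.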

Additional observations from a re-analysis of the deposited data

Results flagged for a closer look

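The ratio of miR-182-5p to the summed white blood cell miRNAs moved in opposite directions in the 2 species, and the list moved further than miR-182-5p did. The odds of a miR-182-5p read rather than a white blood cell read were 6.31 times as high in KD cats as in NR cats (95% interval 4.37 to 9.17) and 0.323 times as high in KD dogs as in NR dogs (0.113 to 0.761). From NR to KD, the list went from 2.41% to 0.265% of the mature reads in cats and from 0.0287% to 0.194% in dogs. The share of miR-182-5p itself went from 0.781% to 0.542% in cats and from 0.369% to 0.805% in dogs. In each species that is the reverse of the direction of the odds ratio. In dogs the list was nearly miR-142-5p alone, with all 6 reads in NR and 112 of 123 in KD. With 1 library per group, the difference between the species was not tested.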

How the results depend on the processing

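For the summed reads of the 3 members, the log2 change in cats was 0.88 on the deposited values. It turned to -0.15 on read counts and to -0.50 as a share of the total, and it was 1.40 when the total left out miR-10, miR-486 and miR-3107. In dogs the change of 2.32 kept its direction and was 1.496 with TMM factors from edgeR, within the species or over the 4 libraries, 1.52 with the median of ratios, 2.70 on read counts, 1.10 as a share of the total, 0.86 against the total without miR-10a-5p and miR-10b-5p and 1.36 when miR-10, miR-486 and miR-3107 were all left out. For single members, miR-182-5p in cats turned to -0.18 on read counts and -0.53 as a share of the total, and miR-183-5p in dogs, at 1.21, turned to -0.017 as a share of the total and -0.25 against the total without miR-10a-5p and miR-10b-5p. Why the scalings differ was not tested. Entries past 2-fold in cats numbered 43 (15 higher, 28 lower), and 24 with a fold of 3, 17 where the mean had to reach 50 and 167 without a filter. On shares of the total 4 were higher and 54 lower, and on read counts 6 and 42. In dogs they numbered 28 (28 higher, 0 lower), and 14 with a fold of 3, 12 where the mean had to reach 50, 77 without a filter, 50 on read counts, 16 as shares of the total (6 higher, 10 lower), 18 with edgeR (11 and 7) and 15 with the median of ratios (10 and 5). Pseudocounts of 1 and 5 kept the direction of each change, and adding the 3p arms changed nothing, since they had 0 reads. No paired analysis was possible because each group is 1 library. Depth limits miR-183-5p, with 3 to 9 reads a library, and miR-96-5p most.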

Other observations

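A single hairpin also led most other clusters of these libraries. Hairpins within 10 kb of each other on the same strand of mm10 formed 11 clusters with at least 50 reads in every library, a grouping chosen after seeing the data. In 10 of them the same hairpin led in all 4 libraries, and in 9 it held over 90% of the reads in each. The cluster of miR-182, where the leading hairpin held from 93.5 to 98.3%, was thus 1 of these 9. In the cluster of 6 hairpins that starts with miR-17, the hairpin of miR-92a held 95.4 to 98.1%, while miR-99b, let-7e and miR-125a shared their reads more evenly, with a leading share of 45.1 to 61.4%. Some of these hairpins have identical mature sequences elsewhere in the genome, so their separate counts are uncertain.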
